A study of Mus musculus with 19 samples.

Results

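Genes that mark neurogenesis and neurons were followed through 12 RNA-seq libraries of cultured mouse cortical neural progenitor cells. The set held 29 of the 26621 genes in the count table, listed by name in 3 groups, with earlier results of these data known. There were 8 genes of proneural cells and intermediate progenitors, 4 of the interneuron lineage and 17 of neurons. After a filter on low counts 20 of the 29 could be tested, 4 of 8 proneural genes, 2 of 4 interneuron genes and 14 of 17 neuron genes.

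The cells came from cerebral cortex at embryonic day 17.5 and were grown on Matrigel with bFGF and EGF at 20 ng/mL each. In one genotype Mettl8, the gene of a methyltransferase that modifies mitochondrial tRNA, was knocked out conditionally (cKO). The other was wild type (WT), with 6 RNA-seq libraries of each genotype, made by SMART-seq2 from 300 ng of total RNA. Which Cre line made the knockout, and whether libraries of a genotype stem from separate embryos or cultures, is not given in the sources used here, so that the p-values cover the spread among these libraries, possibly a technical one. By the prefix of their names the libraries fell into library set 2, with cKO replicates 3 to 6 and WT replicates 4 to 6, and library set 1, with cKO replicates 1 and 2 and WT replicates 1 to 3. The labels do not say what the prefix stands for. A second assay, HAC-seq, which reads chemical cleavage at cytidines, had 3 cKO and 4 WT libraries.

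Neurogenesis in the cortex passes from radial glia to intermediate progenitors to neurons. Proneural factors of the basic helix-loop-helix family, such as Neurog2, start the programme by binding E-box sequences, and genes such as Eomes mark the intermediate progenitors that follow. Neurons then switch on cytoskeletal, RNA-binding and synaptic genes. GABA interneurons arise in the ventral forebrain under the Dlx factors and migrate into the cortex. bFGF and EGF keep progenitor cultures dividing.

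Library totals ran from 11830839 to 18863781 counts, and 3 counts correspond to 0.159 to 0.249 CPM, the unit of the levels below, which are counts relative to TMM-scaled library size. Library sets lay apart on the first principal component (48.5% of variance). Mettl8 itself was higher in every library labelled cKO, at 59.2 to 80.8 CPM, than in every library labelled WT, at 35.9 to 58.6 CPM (edgeR adjusted p = 0.265), so the count over the whole gene goes against the label. The deleted part of the gene is not given in the sources used here, and each genotype direction below is one between libraries as labelled. Of 13 neural stem cell markers 12 were tested, and their summed level was 12599 to 17446 CPM over both genotypes of set 2 and 13760 to 14698 CPM over both genotypes of set 1.

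The 4 promoters printed here belong to members whose levels set the results apart: Neurod6 and Gad2, higher in library set 2, Epha4, lower there, and Reln, the member with the smallest genotype p. Each is the 250 bases before a transcript start of RefSeq's promoter table, 5′ to 3′ on the gene's strand, on GRCm38.p6. The windows of Neurod6 and Reln end at the start of the gene as RefSeq lists it. The window of Gad2 lies inside the listed gene, chr2:22621015-22693877, and that of Epha4 overlaps the listed gene's 5′ end at position 77515107. Neurod6 lies at chr6:55681264-55681513 (minus), Gad2 at chr2:22622077-22622326 (plus), Epha4 at chr1:77515089-77515338 (minus) and Reln at chr5:22344706-22344955 (minus). Capitals mark an E-box, CAGATG on either strand (CATCTG when read on the other) or CAGCTG, which reads the same on both strands and does not overlap the first.
Neurod6: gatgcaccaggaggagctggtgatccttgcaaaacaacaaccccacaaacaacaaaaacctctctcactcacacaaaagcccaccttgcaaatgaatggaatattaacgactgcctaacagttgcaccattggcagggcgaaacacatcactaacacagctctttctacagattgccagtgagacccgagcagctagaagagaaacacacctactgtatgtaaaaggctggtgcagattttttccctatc
Gad2: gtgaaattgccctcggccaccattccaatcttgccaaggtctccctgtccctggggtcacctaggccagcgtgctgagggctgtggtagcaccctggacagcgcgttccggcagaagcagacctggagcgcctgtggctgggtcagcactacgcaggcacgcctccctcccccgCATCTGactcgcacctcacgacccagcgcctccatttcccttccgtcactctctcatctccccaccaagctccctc
Epha4: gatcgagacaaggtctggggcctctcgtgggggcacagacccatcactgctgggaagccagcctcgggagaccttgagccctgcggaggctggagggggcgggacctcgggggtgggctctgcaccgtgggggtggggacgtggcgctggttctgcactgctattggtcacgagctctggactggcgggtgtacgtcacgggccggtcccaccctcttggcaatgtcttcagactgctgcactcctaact
Reln: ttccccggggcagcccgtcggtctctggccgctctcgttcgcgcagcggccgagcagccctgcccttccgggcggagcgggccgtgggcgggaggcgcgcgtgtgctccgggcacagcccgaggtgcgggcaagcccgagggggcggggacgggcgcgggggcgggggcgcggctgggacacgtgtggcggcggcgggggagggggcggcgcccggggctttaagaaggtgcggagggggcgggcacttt
Of the 4, only Gad2 held an E-box of these letters, 76 bases before the transcript start that its window precedes. G and C made up 46.0% of the Neurod6 window, 64.0% of Gad2, 66.0% of Epha4 and 80.0% of Reln. RefSeq promoters were matched for 24 of the 29 genes, in 31 windows since some genes have several starts. Of these windows 10 (32.3%) held either E-box, in 7 of the 24 genes: Hes6, Gadd45g, Gad2, Elavl3, Elavl4, Neurod2 and Syt1. Windows of the same gene can overlap and share an E-box, as some of Elavl4 do, so the share of windows counts such a box more than once. Among all 32851 promoter windows of this length the share was 25.5%, with 14.4% for CAGATG and 13.0% for CAGCTG. A match describes letters only, and nothing here measured binding.

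Library set was the larger division among these genes. In library set 2, 11 of the 20 tested members were higher and 4 were lower than in library set 1 (edgeR quasi-likelihood F test with genotype in the model, threshold 0.05 after Benjamini-Hochberg adjustment over the whole table). Of all 13105 genes tested 43.8% passed, 21.5% higher and 22.2% lower, so many genes differed between the sets. A fold change above 2 with a call was found for 7.77% of all genes, and among the members for Stmn2, Neurod6, Gad2, Gap43 and Syt1, higher in set 2, and Epha4, lower in set 2. In 8 members every set 2 library stood above every set 1 library, and in 2 below, against 11.7% and 11.9% of all genes. In bulk RNA, fewer cells of a type and less RNA per cell cannot be told apart, here and in all results below.

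**Figure D1:**
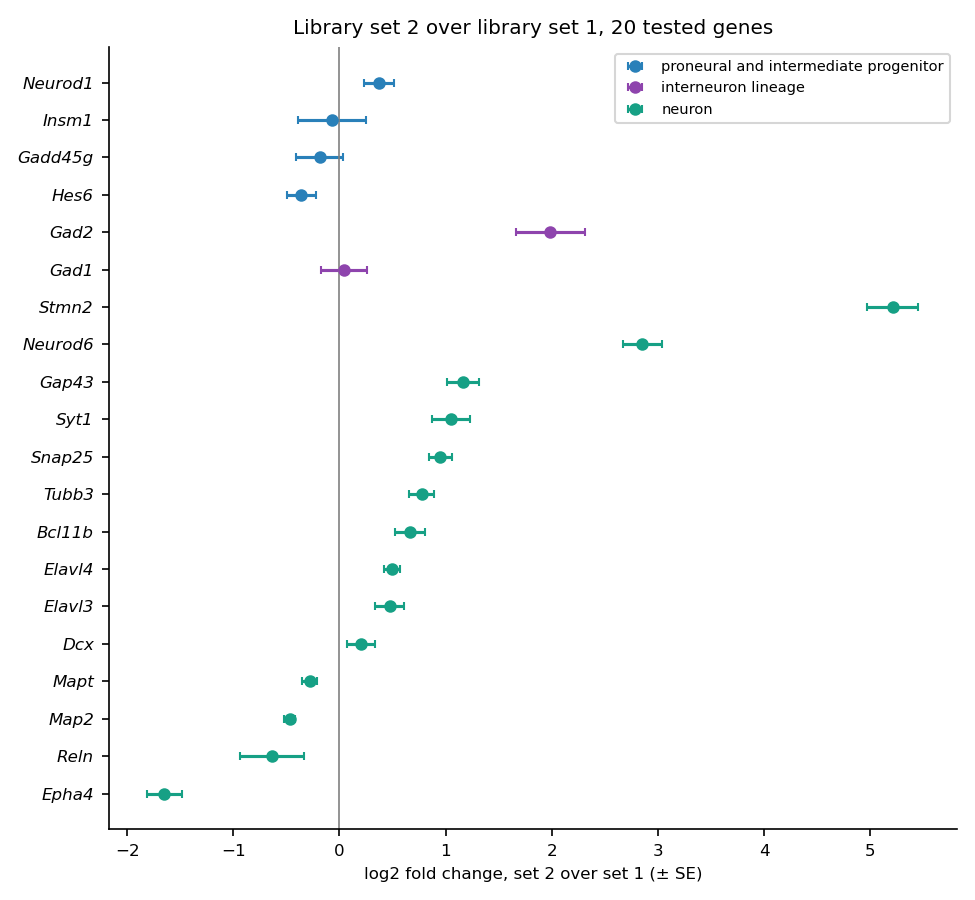
Log2 fold change of library set 2 over library set 1 (x axis, ± SE) for the 20 tested genes, coloured by group. Stmn2 at 5.21, Neurod6 at 2.85 and Gad2 at 1.99 lie furthest to the right, and Epha4 at -1.65 lies furthest to the left.

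Intermediate progenitor genes had few or no counts in every library. Neurog1, a proneural transcription factor, had no count in any of the 12 libraries, which allows up to 0.159 to 0.249 CPM. As small counts were mostly even, this bound may be too low. Eomes, the T-box factor of intermediate progenitors, had 35 counts in all, spread over 5 libraries with at most 12 in one. Neurog2 had 84 counts in all, and Neurod4, a later proneural factor, had 126. These 4 genes failed the filter over the 12 libraries. In library set 1 alone Neurog2 and Neurod4 passed it and were not called, with genotype log2 fold changes of 0.46 (SE 0.911, edgeR unadjusted p = 0.619) and 0.66 (SE 0.685, edgeR unadjusted p = 0.351).

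The 4 tested proneural genes differed little between sets. Neurod1, a basic helix-loop-helix factor of differentiating neurons, stood at 13.9, 17.7, 18.2 and 13.6 CPM in the set 2 cKO libraries and 14.7, 10.7 and 13.7 CPM in the set 2 WT libraries. In set 1 it stood at 11.02 and 9.05 CPM in the cKO libraries and 13.6, 11.1 and 10.6 CPM in the WT libraries. Its values overlapped between the sets, with a log2 fold change of 0.38 (SE 0.141, set 2 over set 1, edgeR adjusted p = 0.0366). Hes6, which opposes the progenitor factor Hes1, went the other way, with 7.16, 6.88, 7.07 and 7.49 CPM in the set 2 cKO libraries, 6.54, 5.74 and 5.92 CPM in the set 2 WT libraries, 6.74 and 8.76 CPM in the set 1 cKO libraries and 9.82, 8.50 and 8.64 CPM in the set 1 WT libraries. That is a log2 fold change of -0.36 (SE 0.136, edgeR adjusted p = 0.0395), with overlap between cKO libraries of the sets. Either call was lost in 7 of the 12 fits that left out 1 library.

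Insm1, a zinc finger factor that promotes basal progenitors, and Gadd45g, a growth arrest gene active in cells that leave the cycle, passed the filter and were not called by set. Insm1 stood at 1.88, 3.57, 1.45 and 1.16 CPM in the set 2 cKO libraries and 1.31, 1.12 and 1.81 CPM in the set 2 WT libraries. In set 1 it stood at 1.17 and 2.87 CPM in the cKO libraries and 1.66, 1.37 and 1.58 CPM in the WT libraries. A cKO library of each set, replicate 4 of set 2 and replicate 2 of set 1, lay above all others. Gadd45g stood at 4.31, 3.65, 2.40 and 3.16 CPM in the set 2 cKO libraries, 4.31, 2.23 and 2.66 CPM in the set 2 WT libraries, 4.67 and 3.37 CPM in the set 1 cKO libraries and 3.59, 2.57 and 3.82 CPM in the set 1 WT libraries. Its groups overlapped throughout.

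Of the interneuron lineage only the enzymes of GABA synthesis were measurable. The homeobox factors Dlx1 and Dlx2, which specify ventral forebrain interneurons, had 10 and 19 counts in all and did not pass the filter. Gad2, which encodes GAD65, stood at 8.56, 2.82, 5.05 and 4.26 CPM in the set 2 cKO libraries and 3.60, 8.66 and 4.35 CPM in the set 2 WT libraries. In set 1 it stood at 1.04 and 2.37 CPM in the cKO libraries and 1.16, 1.37 and 0.791 CPM in the WT libraries. Every set 2 library was above every set 1 library, by a fold change of 3.96 (log2 1.99, SE 0.326, edgeR adjusted p = 6.49e-05), while the genotypes overlapped in both sets. Gad1, which encodes GAD67, showed no such division. It stood at 6.12, 6.97, 6.44 and 5.88 CPM in the set 2 cKO libraries, 7.52, 4.14 and 3.02 CPM in the set 2 WT libraries, 4.99 and 5.03 CPM in the set 1 cKO libraries and 3.86, 5.65 and 7.45 CPM in the set 1 WT libraries, a log2 difference between sets of 0.044 (SE 0.219).

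Among neuron genes 9 of the 14 tested were higher in set 2 and 3 were lower. Stmn2, a microtubule-destabilising protein of growth cones, had the largest difference of all members. It stood at 28.9, 61.6, 42.0 and 41.8 CPM in the set 2 cKO libraries and 46.4, 49.0 and 75.5 CPM in the set 2 WT libraries. In set 1 it was near 1 CPM, with 1.04 and 2.08 CPM in the cKO libraries and 1.55, 0.913 and 1.32 CPM in the WT libraries. The sets did not overlap and differed by a fold change of 37.1 (log2 5.21, SE 0.242, edgeR adjusted p = 7.31e-12).

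Neurod6, a basic helix-loop-helix factor of cortical glutamatergic neurons, followed. It stood at 16.8, 29.6, 21.1 and 21.9 CPM in the set 2 cKO libraries, 24.1, 32.7 and 41.2 CPM in the set 2 WT libraries, 2.33 and 3.73 CPM in the set 1 cKO libraries and 5.02, 5.36 and 3.30 CPM in the set 1 WT libraries. The sets again did not overlap, with a fold change of 7.22 (log2 2.85, SE 0.184, edgeR adjusted p = 5.80e-10). Other neuron genes higher in set 2 were Gap43 (log2 fold change 1.16, growth cone protein), Syt1 (1.05, calcium sensor of vesicle release), Snap25 (0.95, SNARE protein), Tubb3 (0.78, neuronal tubulin), Bcl11b (0.67, factor of deep-layer projection neurons) and the RNA-binding proteins Elavl4 (0.49) and Elavl3 (0.47).

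Epha4, an ephrin receptor of axon guidance, moved the other way. It stood at 21.3, 17.3, 19.4 and 19.8 CPM in the set 2 cKO libraries and 22.2, 28.7 and 37.6 CPM in the set 2 WT libraries. In set 1 it stood at 88.4 and 91.7 CPM in the cKO libraries and 63.2, 77.3 and 53.3 CPM in the WT libraries. All 7 set 2 libraries lay below all 5 set 1 libraries, with a log2 fold change of -1.65 (SE 0.164, edgeR adjusted p = 1.66e-07). The microtubule-associated genes Map2 (log2 fold change -0.47) and Mapt (-0.28) were also lower in set 2. Map2 stood at 1715, 1703, 1705 and 1555 CPM in the set 2 cKO libraries, 1530, 1577 and 1557 CPM in the set 2 WT libraries, 2251 and 2472 CPM in the set 1 cKO libraries and 2118, 2302 and 1917 CPM in the set 1 WT libraries. Its sets did not overlap.

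Dcx, which binds microtubules in migrating neurons, and Reln, the secreted glycoprotein of Cajal-Retzius cells, were not called by set. Dcx had a log2 difference of 0.20 (SE 0.133, edgeR adjusted p = 0.239, or 0.0409 without a filter on low counts) and Reln of -0.63 (SE 0.3003, edgeR adjusted p = 0.0953, or 0.035 without WT replicate 1). Rbfox3, which encodes NeuN, Neurod2, a glutamatergic factor, and Tbr1, a deep-layer factor, had 74, 90 and 24 counts in all and did not pass the filter over the 12 libraries. In library set 2 alone Neurod2 passed it and was not called (genotype log2 fold change -0.63, SE 0.544, edgeR unadjusted p = 0.261).

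**Figure D2:**
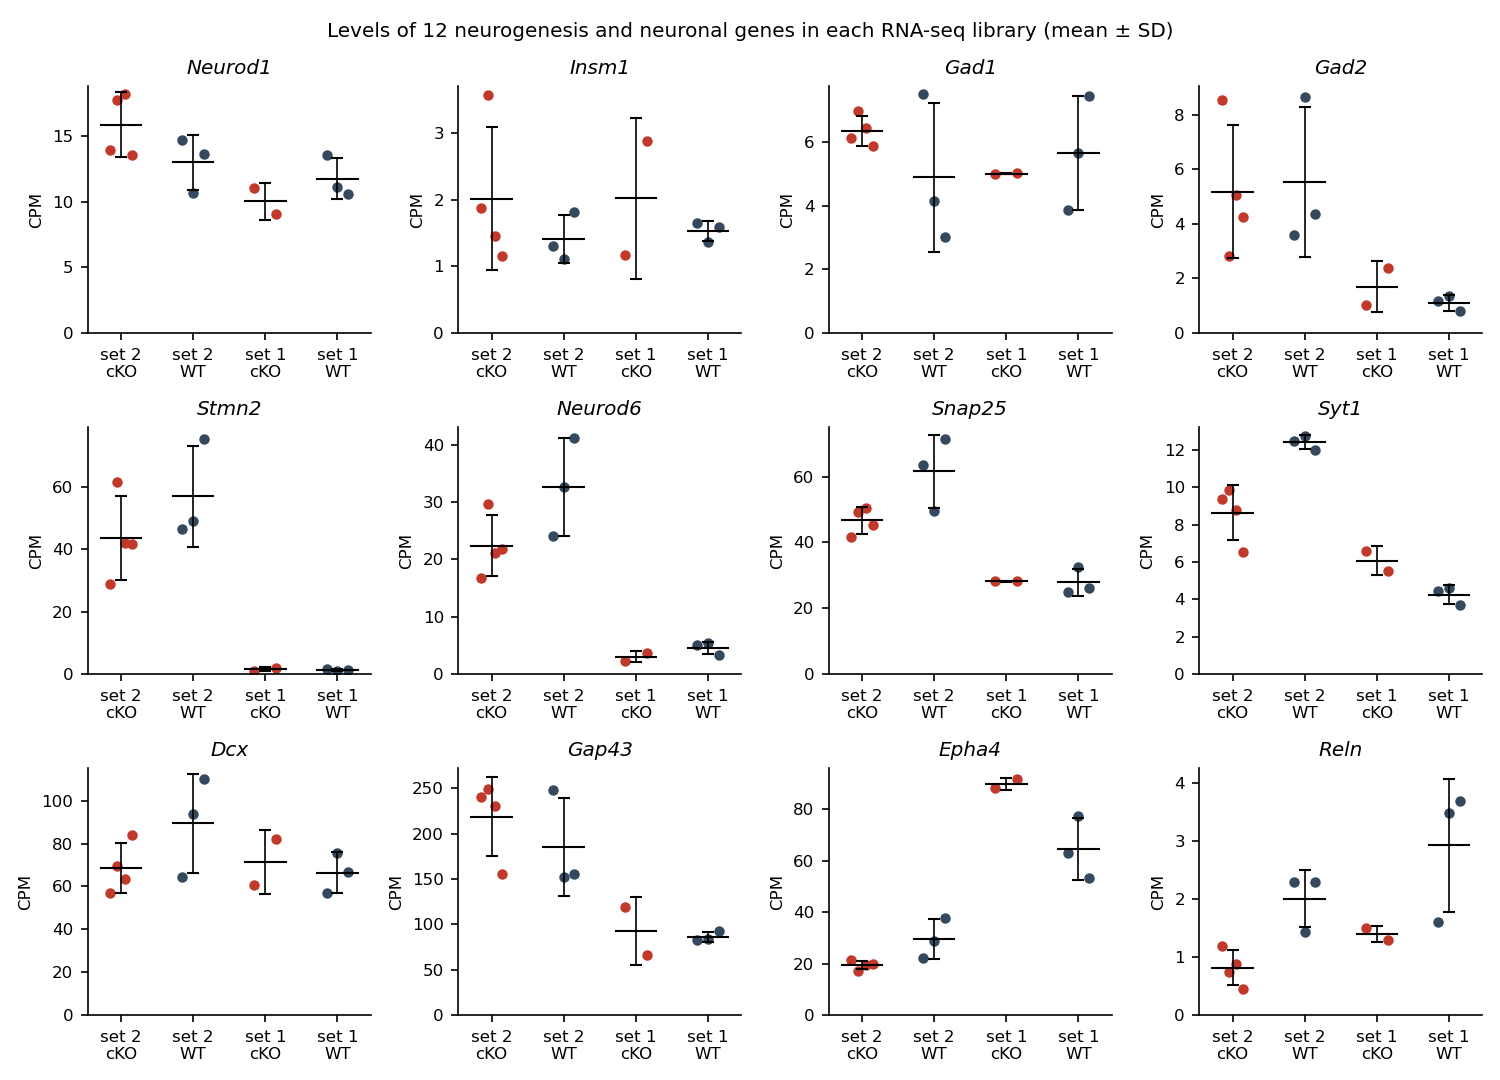
Level in CPM (y axis, from 0) of 12 members in each library, for cKO and WT libraries of set 2 and then of set 1; points are libraries and bars the mean ± SD. Stmn2, Neurod6 and Gad2 stand higher in set 2, Epha4 stands lower there, and Reln is lower in cKO than in WT libraries within either set.

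Other genes of these lineages moved with the library sets as well, and in both directions. Of 40 further neuron genes 35 were tested, 18 were higher in set 2 and 3 lower, with a median log2 fold change of 0.36, against 0.0012 over all genes tested. The synaptic vesicle gene Syt4 ran from 29.1 to 66.2 CPM in set 2 and from 3.76 to 9.07 CPM in set 1 (log2 2.94, SE 0.162, edgeR adjusted p = 7.03e-11). Slc17a6, the vesicular glutamate transporter VGLUT2, had no count in set 1 and 285 counts in set 2, at 1.26 to 6.40 CPM. That is 69.2-fold above a floor of 3 counts over the set 1 libraries together. Small counts were mostly even, so that floor may be too low and the fold too high. Of 20 further interneuron lineage genes 12 were tested, 5 were higher in set 2 and 4 lower, with a median of 0.065. Sst, the somatostatin gene, chosen after its values were seen, had no count in set 1 and 114 in set 2, 28.1-fold above the same floor, with the same limit. The further proneural list leaned the other way: of 22, 19 were tested, 2 were higher in set 2 and 12 lower, with a median of -0.32. It also held Id1 to Id4, inhibitors of proneural factors, and Rest, a repressor of neuronal genes. These counts therefore do not describe proneural factors alone. Sox11 (log2 0.36, SE 0.0625) and Rest (0.48, SE 0.155) were higher. Tcf4 (-0.16), Tcf12 (-0.32), Myt1 (-0.61), Id2 (-0.28) and Id4 (-1.90) were among the lower, while Id1 and Id3 were not called.

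Glial and stem cell markers also differed between the sets. Of 11 tested astrocyte markers 10 were lower in set 2 and 0 higher, and their summed level was 2063 to 3432 CPM in set 2 and 4675 to 6269 CPM in set 1. Of 9 tested oligodendrocyte lineage markers 7 were lower in set 2 and 0 higher, with summed levels of 437 to 743 CPM in set 2 and 1036 to 1310 CPM in set 1. Neural stem cell markers were higher in set 2 for 7 and lower for 4 of the 12 tested. On the same summed scale the 17 neuron members stood at 2317 to 2621 CPM in set 2 and 2550 to 3081 CPM in set 1, with overlap, and most of that sum was Map2. The 40 further neuron genes summed to 5154 to 6725 CPM in set 2 and 6160 to 7045 CPM in set 1. The part of these markers in the differences of the neuron genes was not tested, and since the meaning of the prefix is unknown, sequencing, culture and tissue cannot be told apart.

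Genotype gave no call in any member. Across all 13105 genes edgeR called 0 (0% of genes), and 805 (6.14%) had an unadjusted p under 0.05, 2.86% higher and 3.28% lower in libraries labelled cKO. DESeq2 called 2 genes and limma voom 1, none of them a member. Of the 20 members 5 had an unadjusted p under 0.05, all neuron genes, 1 higher and 4 lower, with adjusted p from 0.803 to 0.806. In no member did the 6 cKO libraries lie wholly above or below the 6 WT libraries, a pattern that 0.13% of all genes showed.

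**Figure D3:**
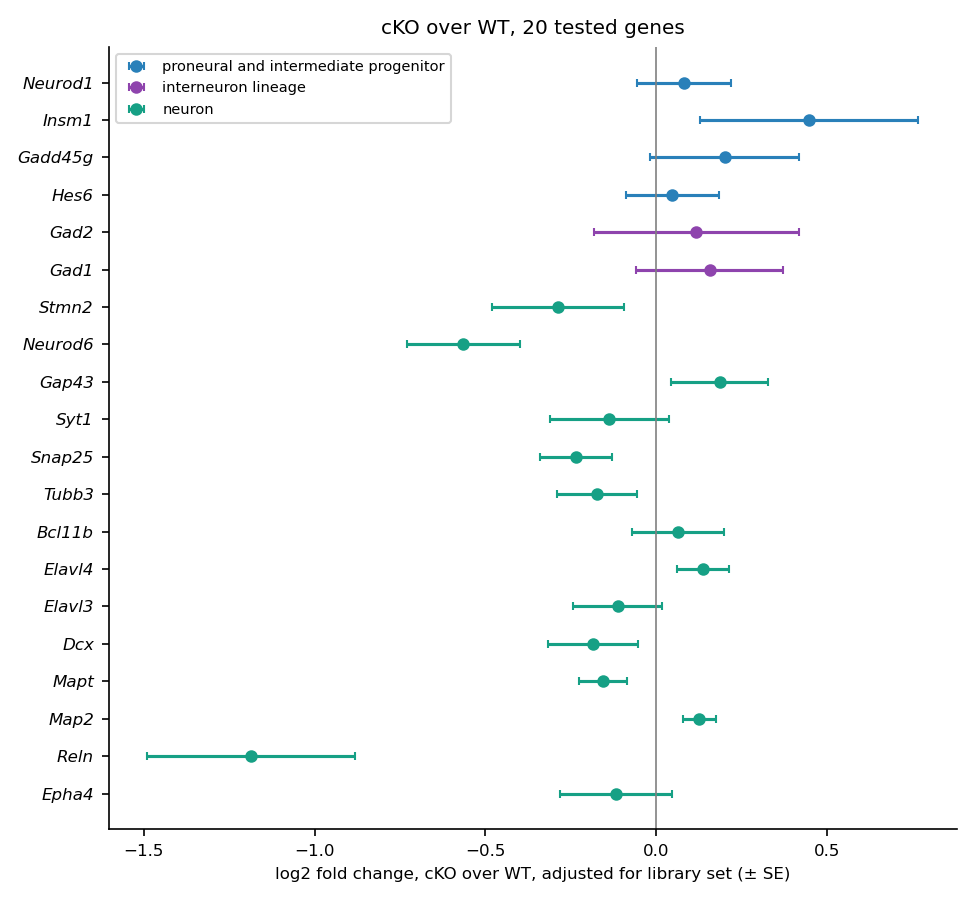
Log2 fold change of cKO over WT libraries with library set in the model (x axis, ± SE) for the 20 tested genes, coloured by group. All 4 proneural and both interneuron genes lie at or right of 0, and 10 of 14 neuron genes lie left of it, Reln furthest at -1.19; none passed the adjusted threshold.

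All 4 tested proneural genes had a fold change above 0, with a median log2 of 0.14, and both interneuron genes did, with a median of 0.14. Insm1 was at 0.45 (SE 0.319), Gadd45g at 0.20 (SE 0.219), Neurod1 at 0.082 (SE 0.138), Hes6 at 0.048 (SE 0.136), Gad1 at 0.16 (SE 0.216) and Gad2 at 0.12 (SE 0.301), each with an edgeR adjusted p of at least 0.870. Only Insm1 and Gadd45g among these 6 kept their sign in all alternatives run. Neuron genes were below 0 in 10 of 14 cases, with a median of -0.15, where 50.4% of all genes were below 0 and their median was -0.000996. Astrocyte markers were below 0 in 11 of 11 cases, with a median of -0.15, and their part in the neuron gene values was not tested.

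Reln had the lowest genotype value of the members. In set 2 it stood at 1.18, 0.746, 0.884 and 0.452 CPM in the libraries labelled cKO and 2.29, 1.43 and 2.30 CPM in those labelled WT. In set 1 it stood at 1.49 and 1.29 CPM in the libraries labelled cKO and 1.60, 3.48 and 3.69 CPM in those labelled WT. Within either set all cKO libraries lay below all WT libraries, while set 1 cKO replicate 1 was above 1 WT library of set 2. Over all libraries Reln averaged 1.01 ± 0.384 CPM in cKO and 2.47 ± 0.939 CPM in WT libraries (SD, n = 6 each), a log2 fold change of -1.19 (SE 0.304, edgeR unadjusted p = 0.000949, adjusted p = 0.803). The exact two-sided permutation of log2 CPM within sets, over 350 splits, gave p = 0.00857. Permutation was run only for members picked by an unadjusted edgeR p under 0.05 in these same libraries. Its p-values here and below are not adjusted for that choice or for the number of members, so they add no separate support. These values rest on 7 to 61 counts per library.

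Markers of Cajal-Retzius cells, which make Reln in the embryonic cortex, were at low levels. Of 8 such markers 3 were tested, Lhx5 and Nhlh2 had no count in any library, and Lhx1 had 4 counts and Trp73 had 41 in all. Of the 3 tested, 2 had a genotype log2 fold change below 0 and 1 above, with a median of -0.27, and 0 were called. They ran from -0.48 (SE 0.273) for Calb2, which is also in the further interneuron list, to 0.62. The summed level of the list was 5.29 to 5.997 CPM in the set 2 cKO libraries, 5.62 to 7.49 CPM in the set 2 WT libraries, 3.24 to 5.24 CPM in the set 1 cKO libraries and 3.30 to 5.08 CPM in the set 1 WT libraries. The Reln receptor genes Vldlr and Lrp8 and the adaptor Dab1, chosen after their values were seen, had genotype log2 fold changes of -0.039 (SE 0.0934), 0.086 (SE 0.0732) and 0.071 (SE 0.0689).

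Neurod6 was the other neuron gene with a large genotype value. Its libraries, given above, averaged 22.4 ± 5.32 CPM in the set 2 cKO libraries and 32.6 ± 8.55 CPM in the set 2 WT libraries (SD, n = 4 and 3), and 3.03 ± 0.989 CPM in the set 1 cKO libraries and 4.56 ± 1.11 CPM in the set 1 WT libraries (SD, n = 2 and 3). The log2 fold change was -0.56 (SE 0.166, edgeR unadjusted p = 0.00297, adjusted p = 0.803), and the exact permutation p was 0.0257, which was at or above 0.05 in 8 of the 12 cases with 1 library left out. Genotypes overlapped within either set. Without a filter on low counts its edgeR adjusted p was 0.00616, the only call of a member by genotype among the alternatives. That fit left the Neurod6 log2 fold change at -0.56 and called 65 of all genes by genotype, against 0 with the filter.

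The other 3 genes with an unadjusted p under 0.05 had small differences. Snap25 had a log2 fold change of -0.23 (SE 0.105, edgeR unadjusted p = 0.0372) and Mapt of -0.16 (SE 0.0701, edgeR unadjusted p = 0.0386), and Map2 of 0.13 (SE 0.0482, edgeR unadjusted p = 0.0165). Exact permutation within sets gave p = 0.12 for Snap25, p = 0.0743 for Mapt and p = 0.0343 for Map2, which was above 0.05 in 7 of the 12 cases with 1 library left out. For Mapt it was p = 0.00952 without WT replicate 1 (exact permutation). Elavl4, which had the highest mean CPM of the neuron genes after Map2 on a scale not corrected for gene length, stood at 234, 246, 253 and 198 CPM in the set 2 cKO libraries, 231, 198 and 194 CPM in the set 2 WT libraries, 178 and 145 CPM in the set 1 cKO libraries and 139, 145 and 168 CPM in the set 1 WT libraries. Its genotypes overlapped in both sets (log2 0.14, SE 0.0751).

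Among the further genes 0 were called by genotype. Of 35 tested neuron genes 23 were below 0, with a median of -0.068, and 1 had an unadjusted p under 0.05. That gene was Syt4, with a log2 fold change of -0.50 (SE 0.146, edgeR unadjusted p = 0.00266, adjusted p = 0.803), and Slc17a6 came next at -0.83 (SE 0.453). Ncam1, among the highest in CPM of this list on a scale not corrected for gene length, had a fold change of -0.061. Of 12 tested interneuron genes 7 were below 0, among them Calb2 (-0.48, SE 0.273), while Etv1, among the highest in CPM of its list, had a fold change of 0.0080. Of 19 tested genes of the proneural list 9 were below 0. The inhibitors Id1, Id2 and Id4 and the repressor Rest were among these, while Id3 was above 0. In this list 4 genes had an unadjusted p under 0.05, 3 above 0 and 1 below 0, which was Id4 (-0.65, SE 0.283). Myt1 at 0.24 (SE 0.0928) and Tcf12 at 0.11 (SE 0.0463) were the smallest in p.

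Taken within each library set, the neuron genes gave different pictures. In set 2 alone, 4 libraries labelled cKO against 3 labelled WT, 10 of 14 neuron genes were below 0 with a median log2 fold change of -0.34, and 7 were lower at an unadjusted p under 0.05 and 0 higher. In that fit 50.3% of all genes were below 0 and 4.2% were lower at that level. Astrocyte markers were below 0 in 11 of 11 cases there, with a median of -0.24, and neural stem cell markers in 9 of 12. Of the members 0 were called (edgeR adjusted p of at least 0.597), beside 2 of all genes (0.015%). The 7 neuron genes with a lower value were Reln (-1.28), Epha4 (-0.60), Neurod6 (-0.55), Syt1 (-0.53), Snap25 (-0.40), Dcx (-0.38) and Mapt (-0.22). Leaving out each set 2 library in turn gave 4 to 8 such genes, with the lowest number without WT replicate 6. In set 1 alone, 2 libraries labelled cKO against 3 labelled WT, 4 of 14 were below 0, with a median of 0.093, where 50.1% of all genes were below 0. Reln (-1.06) and Epha4 (0.48) had an unadjusted p under 0.05 there, as had 2.14% of all genes, and 0 members were called.

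Single libraries of these genes were then set side by side. In set 2 all 4 cKO libraries lay below all 3 WT libraries for Mapt, Syt1, Reln and Epha4, a pattern found in 3.96% of all genes, and above them for Hes6, found in 3.89%. Syt1 stood at 9.39, 9.87, 8.77 and 6.52 CPM in the set 2 cKO libraries and 12.5, 12.7 and 12.03 CPM in the set 2 WT libraries. In set 1 both cKO libraries lay above all 3 WT libraries for Syt1 and Epha4, as for 7.83% of all genes, and below them for Reln, as for 8.36%. Syt1 stood there at 6.62 and 5.53 CPM in the cKO libraries and 4.47, 4.62 and 3.69 CPM in the WT libraries. Epha4 was likewise lower in the set 2 cKO libraries (log2 -0.60, SE 0.154, edgeR unadjusted p = 0.00133) and higher in the set 1 cKO libraries (log2 0.48, SE 0.138, edgeR unadjusted p = 0.00394).

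The test of that difference, the interaction of genotype and library set, called 0 of 13105 genes, and 464 (3.54%) had an unadjusted p under 0.05. Of the members 3 did, Epha4 with a log2 difference of -1.08 (SE 0.228, edgeR unadjusted p = 0.000156, adjusted p = 0.784), Syt1 of -1.04 (SE 0.281, edgeR unadjusted p = 0.00165) and Snap25 of -0.42 (SE 0.198, edgeR unadjusted p = 0.0493). DESeq2 called Epha4 (adjusted p = 0.0447) and 2 genes in all, and edgeR without a filter on low counts called Epha4 among 35 genes.

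**Figure D4:**
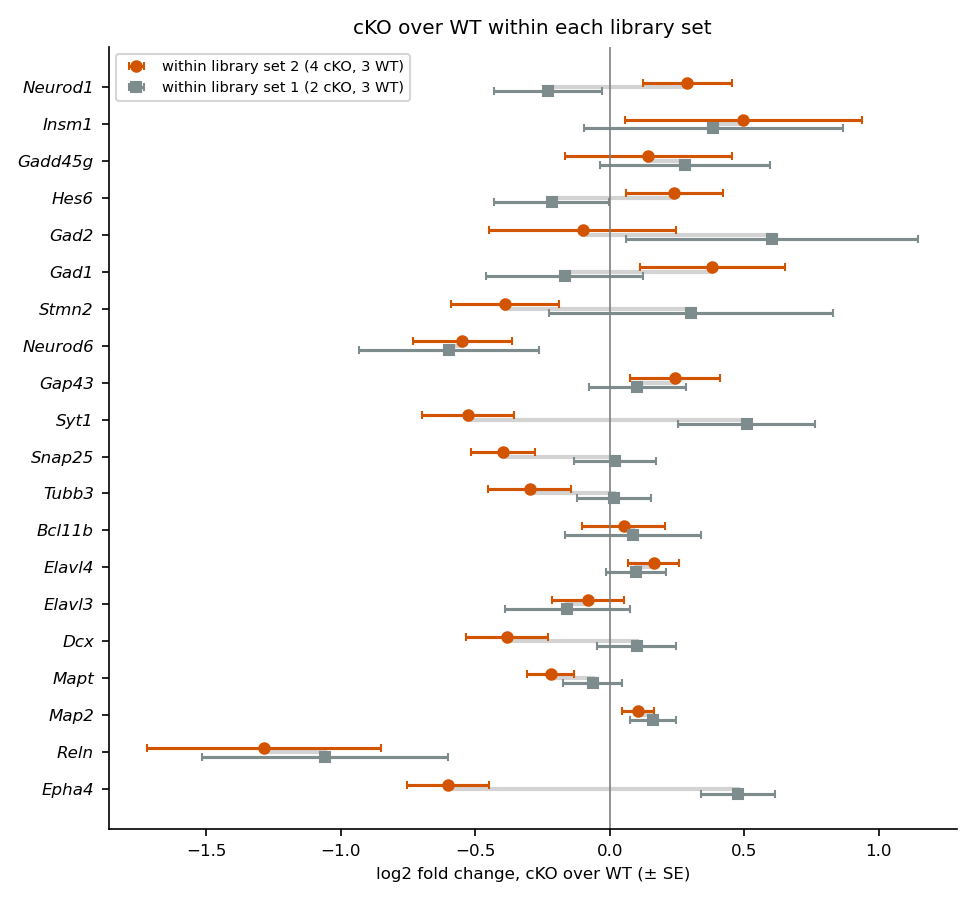
Log2 fold change of cKO over WT libraries (x axis, ± SE) in library set 2 alone (circles) and library set 1 alone (squares) for the 20 tested genes. The 2 values of Epha4 (-0.60 in set 2, 0.48 in set 1) and Syt1 (-0.53 in set 2, 0.51 in set 1) lie on opposite sides of 0, while Reln and Neurod6 lie left of 0 in both sets.

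Single libraries were compared by the mean log2 CPM of each group's tested genes, less the mean of the WT libraries of the same set. For the 14 neuron genes the set 2 cKO libraries stood at -0.32, -0.17, -0.26 and -0.41 and the set 2 WT libraries at -0.05, -0.11 and 0.17, without overlap. The 35 further neuron genes overlapped there. Their set 2 cKO libraries stood at -0.13, -0.11, -0.07 and -0.15, and their set 2 WT libraries at -0.02, -0.11 and 0.13. The summed level of the 17 neuron members, mostly Map2, averaged 2514 CPM in set 2 cKO and 2443 CPM in set 2 WT libraries. In set 1 the cKO libraries stood at -0.01 and 0.03 and the WT libraries at -0.09, 0.06 and 0.03. For the 4 proneural genes the set 2 cKO libraries stood at 0.32, 0.56, 0.12 and 0.06 and the set 2 WT libraries at 0.19, -0.25 and 0.07, with overlap.

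Other cell type markers differed among the same libraries. Astrocyte markers were at -0.19, -0.90, -0.39 and 0.07 in the set 2 cKO libraries and -0.23, 0.08 and 0.16 in the set 2 WT libraries. Oligodendrocyte markers were at -0.30, -0.84, -0.43 and 0.13 in the set 2 cKO libraries and -0.45, 0.20 and 0.25 in the set 2 WT libraries. cKO replicate 4 was the lowest in both lists and in neural stem cell markers (-0.27), while of the set 2 cKO libraries it had the highest level of both the proneural and the neuron genes. The part of the glial markers in the neuron gene values was not tested.

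**Figure D5:**
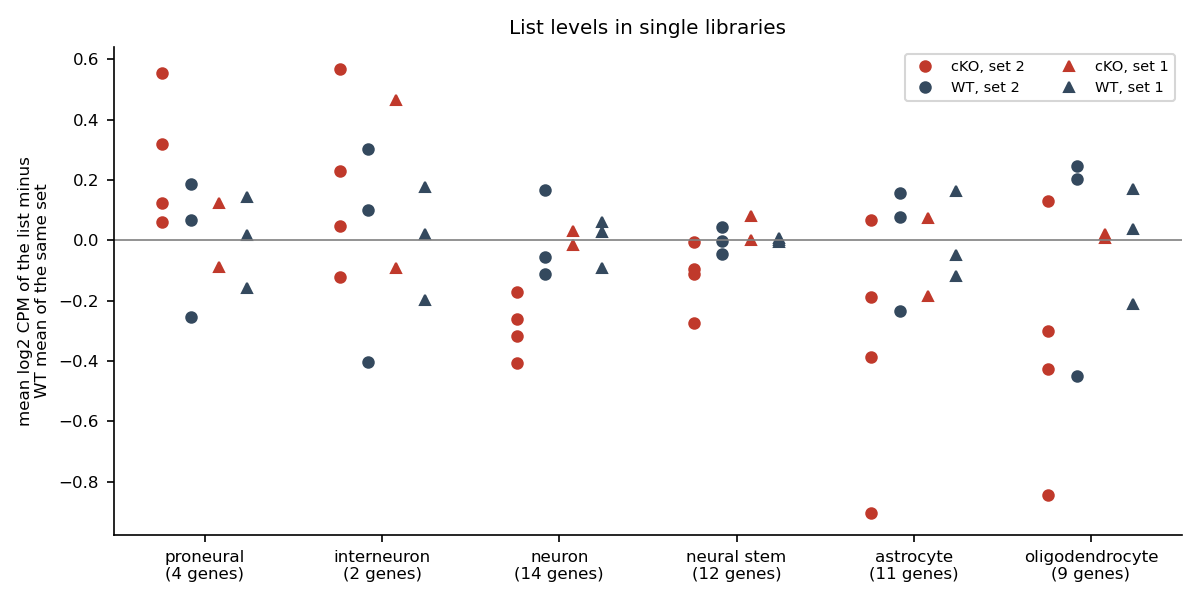
Mean log2 CPM of the tested genes of each list in single libraries, less the mean of the WT libraries of the same set (y axis); circles are set 2, triangles set 1, with cKO left of WT. For the 14 neuron genes the 4 set 2 cKO libraries (-0.41 to -0.17) lie below the 3 WT libraries, and for astrocyte and oligodendrocyte markers set 2 cKO replicate 4 lies lowest, at -0.90 and -0.84.

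HAC-seq gave a separate readout for a few members. Hydrazine and aniline cut RNA at 3-methylcytidine, so that the share of reads starting 1 base downstream, the cleavage ratio, is high at a modified cytidine. The site table held 135 sites on the strand of 5 members, 70 in Gap43, 58 in Map2, 5 in Mapt and 1 each in Hes6 and Gadd45g, and none for the other 24 members. Where every library had 50 or more reads and the mean ratio reached 0.05, sites were tested, 18 in all, and 0 were called or had an unadjusted p under 0.05 in the quasi-binomial fit. Of all 13240 tested sites 1 was called (0.00755%) and 8.64% had an unadjusted p under 0.05, 6.62% higher and 2.02% lower in libraries labelled cKO. Mean ratios were higher in libraries labelled cKO at 10 of the 18 member sites, beside 61.4% of all tested sites.

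A Gap43 site had a high ratio in both genotypes. At chr16:42249117 on the minus strand (GRCm38.p6) the ratio was 96.6% ± 1.40 (SD, n = 3) in the cKO libraries and 95.3% ± 2.73 (SD, n = 4) in the WT libraries, with coverage of 83 to 251 reads and an adjusted p of 0.721 (quasi-binomial fit with limma's squeezed dispersions). The other 17 member sites had mean ratios of 3.09% to 13.7% in cKO and 5.39% to 11.3% in WT libraries. The depth of these sites limits what difference could be seen, and no sequence around the Gap43 site is given in the files used. A high ratio alone does not show that a cytidine is modified, and whether this one is was not tested.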

How the data were processed

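RNA-seq (12 libraries) and HAC-seq (7 libraries) of cultured mouse cortical neural progenitor cells were analysed. Per the submitters' processing notes, bcl2fastq 2.17.1.14, Trimmomatic 0.32 and STAR 2.5.2a were used, with GRCm38 and GRCm38.p6. The sources used here do not name the counting program. The authors deposited raw counts per gene without normalization. Of counts from 1 to 10, 17.4% were odd, against 50.1% from 101 to 1000, so an alternative divided counts by 2. Per the file headers, the HAC-seq table gives for each library the read starts downstream of a C site (a signal), the count of all reads there, and the cleavage ratio, a fraction obtained by dividing the first by the second and shown here as a percent.

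In R 4.3.3 with edgeR 4.0.16, 13105 genes passed filterByExpr. After TMM scaling, genotype and library set entered 1 model and each was tested with edgeR's quasi-likelihood F test (two-sided), adjusted over all genes after Benjamini and Hochberg. SE came from the F statistic. For HAC-seq sites a quasi-binomial model was used, with dispersions squeezed by limma 3.58.1. Log2 CPM used a prior count of 2. The fits were tested on simulated data. Alternatives used DESeq2 1.42.0, limma voom, other scalings, filters and covariates, and left out each library. Map2 is listed under an older symbol, matched through RefSeq. Members and lists were chosen with earlier results of these data known. All 29 members are named; values per library are given, within each group, for the 2 highest in CPM, the 2 smallest in genotype p and the 2 largest in set difference. Of the other lists, the 2 smallest in genotype p and 2 highest in CPM are named, except some that are not reported here; other genes, Epha4 and Syt1 per library included, were chosen after their values were seen. No 2 libraries agreed within sampling noise.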

Additional observations from a re-analysis of the deposited data

Results flagged for a closer look

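The level of 1 member stood apart from its genotype group in 1 library. Hes6 in cKO replicate 2 had 8.76 CPM, while the next highest of the 6 libraries labelled cKO had 7.49 CPM, a gap of 0.63 of the group's range. Such a gap is found by chance in about 1 in 20 groups of like libraries, whereas this group pooled both library sets. The library is of set 1, where the WT libraries stood at 9.82, 8.50 and 8.64 CPM and cKO replicate 1 at 6.74 CPM. Its value thus lay within the WT range of its own set.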

How the results depend on the processing

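The count of genes called by genotype was 0 and became 2 under DESeq2, 1 under limma voom, 65 without a filter on low counts, 2 in library set 2 alone and 2 with a replicate block. Members called by genotype were 0 and became 1 without the filter (Neurod6). Interaction calls were 0 and became 2 genes under DESeq2, 35 without the filter and 3 with the replicate block, with 1 member (Epha4) under DESeq2 and 1 without the filter. With the replicate block the library set called 1024 genes and 5 members; same-numbered replicates correlated at -0.049 to 0.17, so the numbers do not pair the libraries, and the block leaves the set difference to few of them. The cause of the other changes was not tested.

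Signs turned as follows. limma voom gave Gad2 -0.0088 and Epha4 0.041 by genotype, and a fit without the library set term gave Hes6 -0.034 and Stmn2 0.020. Library set 1 alone gave Neurod1 -0.23, Hes6 -0.22, Gad1 -0.17, Tubb3 0.016, Dcx 0.10, Stmn2 0.30, Syt1 0.51, Snap25 0.019 and Epha4 0.48. Library set 2 alone gave Gad2 -0.10. The replicate block gave Gad2 -0.16 by genotype, and Gad1 -0.61 and Dcx -0.092 by library set.

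Leaving out each of the 12 libraries gave 0 to 1 genes called by genotype and 0 to 1 by interaction. Genotype log2 values then ran from -0.018 to 0.18 for Neurod1, -0.0014 to 0.15 for Hes6, -0.0090 to 0.34 for Gad1, -0.10 to 0.47 for Gad2, -0.0047 to 0.11 for Bcl11b and -0.23 to 0.049 for Epha4. Library set values ran from -0.28 to 0.16 for Insm1 and -0.12 to 0.20 for Gad1. Differences tested by permutation ran from -0.20 to -0.12 for Mapt, 0.099 to 0.15 for Map2 and -0.66 to -0.45 for Neurod6. In set 2 alone, leaving out 1 library (chosen after seeing the data) gave 4 to 8 neuron genes lower at an unadjusted p under 0.05.

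Of the 15 members called by library set, 13 stayed called in every alternative but the replicate block; Neurod1 and Hes6 did not. Low counts limit Reln, Insm1 and the 9 members that did not pass the filter over the 12 libraries.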
